A study of Solanum lycopersicum with 8 samples.

Results

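Mature green tomato fruit (Solanum lycopersicum) that carry both the Aft and the atv allele were compared with fruit that carry Aft alone, to describe what atv adds in an Aft background. The comparison sets the 2 arrays titled as the Aft/Aft atv/atv double mutant against the 2 arrays titled as the Aft (Anthocyanin fruit) mutant, which are 4 of the 8 arrays of the study. It was made across all 9493 probe sets that passed a minimum signal, of 10209 on the array. The other 4 arrays, 2 of the wild type cv. Ailsa Craig and 2 of the atv (atroviolacea) mutant, entered the same fit and give the change that goes with atv in a background without Aft. Every sample was total RNA of fruit peel from plants raised under glass in the winter season, heated so that it never fell below 12 °C, without treatment, and each genotype had 2 biological replicates with 1 array each. Per the labels, Aft peel carried anthocyanin in spots, double mutant peel was strongly pigmented, and the peel of the other genotypes had no significant anthocyanin. The titles name no cultivar for the mutant lines, so a difference in line background cannot be told apart from a difference in genotype.

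Anthocyanins are made from phenylpropanoid precursors. Chalcone synthase starts the flavonoid pathway, dihydroflavonol reductase (DFR) opens the branch that leads to anthocyanins, and transcription factors of the MYB and bHLH families set how strongly these genes are transcribed. Cultivated tomato fruit normally make little or no anthocyanin; Aft is a dominant allele brought in from a wild relative, and atv is a recessive allele that raises pigmentation in other organs and acts strongly in fruit when Aft is present. In genetic work elsewhere, Aft has been traced to a MYB activator and atv to a small MYB repressor, but neither gene was among the symbols tested and the alleles themselves were not checked here.

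Replicate arrays correlated with r from 0.9775 to 0.9878 over probe sets, and the Aft and double mutant arrays correlated with each other at a mean of 0.9641, whereas the atv arrays stood apart, at a mean of 0.9040 with the wild type. The median deposited intensity ran from 514.5 on double mutant array 2 to 755.4 on Aft array 2. Over 5 pairs of tomato control probe sets, the mean log2 difference between the 3′ and 5′ ends, a measure of RNA integrity, was 0.91 on Aft array 1 and 0.29 on Aft array 2, against 0.31 and 0.38 in the double mutant; its part in the results was not tested, and calls that end without Aft array 1 are named below. The peel label could be checked only thinly by symbol. FDH, placed with cuticle and epidermis genes by its symbol alone, so that its identity is not settled, read 12.94 and 13.08 in Aft and 13.03 and 12.85 in the double mutant, the trichome gene MTS1 read 4.02 or less on each of the 8 arrays, and no symbol of the vascular list was tested. The reference genes CYP1, TUB and ACT differed by -0.31, 0.08 and -0.05 on the log2 scale between the double mutant and Aft and did not pass the test. They were not all stable between atv and the wild type, where CYP1 was called higher and TUB lower in atv, and ACT was not called. As these are whole peel samples, fewer cells of a type and less RNA per cell cannot be told apart.

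A small part of the probe sets tested was called between the double mutant and Aft. With 2 arrays a genotype, a probe set that was not called cannot be taken as unchanged. Before adjustment, 2341 had a p under 0.05 (limma). Of the 9493 probe sets, 389 differed between the double mutant and Aft (4.10%; limma, adjusted p under 0.05), 239 of them higher (2.52%) and 150 lower (1.58%) in the double mutant. The median size of a called difference was 1.1 on the log2 scale, or 2.14-fold, and the smallest was 0.45. More than 2-fold differences were called for 213 probe sets, 123 higher and 90 lower, and more than 4-fold ones for 73, 40 higher and 33 lower. On the deposited scale, without quantile normalization, 76 were called. Of 41 named probe sets called here, 27 were not called on that scale; those that were are CHS1, MT3, psi14B, ACO4, ETR6, ODD, AOX1a, CHI3, LOXB, LOX1.1, TBG1 and 3 of the 4 without a symbol. None of the 389 had overlapping arrays, which also held for 61.7% of all probe sets tested. Of the 849 tested probe sets with a gene symbol 71 were called (8.36%), 45 higher and 26 lower. The count rests on the spread shared over the 8 arrays and moved with single arrays, from 73 without double mutant array 2 and 83 without Aft array 1 to 821 without either atv array. It was 134 without either wild type array, 153 without double mutant array 1 and 246 without Aft array 2.

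**Figure D1:**
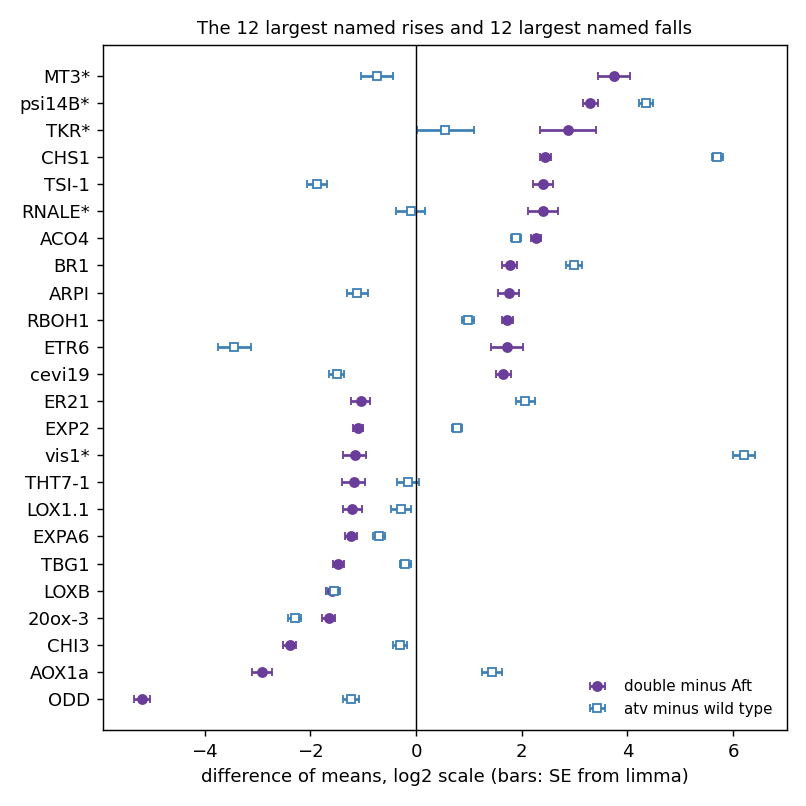
The 12 largest rises and 12 largest falls among called genes with a symbol other than a bare gene number, as the difference of group means on the log2 scale with the limma standard error. Filled circles give the double mutant minus Aft and open squares atv minus wild type; CHS1 rose by 2.44 and ODD fell by 5.19 in the double mutant. Asterisks mark genes near background in 1 or more genotypes (MT3, psi14B, TKR, RNALE and vis1), whose sizes are not exact; TSI-1, ETR6 and AOX1a lie on opposite sides of 0 in the 2 comparisons.

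Among flavonoid genes, CHS1, which encodes a chalcone synthase, rose. Its log2 intensity was 10.62 and 10.69 in Aft and 13.06 and 13.14 in the double mutant, with no overlap. This was a difference of 2.44 (SE 0.10, adjusted p = 0.00057), or 5.44-fold, and it was called in all 16 alternative settings tried. CHS1 read 7.59 and 7.78 in the wild type and 13.35 and 13.41 in the atv mutant, so the double mutant and the atv mutant, 1 strongly pigmented and 1 not, had nearly the same level of this transcript. CHS2, another chalcone synthase gene, was bright on all arrays, at 13.28 and 13.45 in Aft and 13.63 and 13.62 in the double mutant, and its difference of 0.26 did not pass (adjusted p = 0.19).

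DFR read 10.57 and 10.77 in Aft and 13.30 and 13.39 in the double mutant. The double mutant arrays lay above all others, with the atv arrays at 7.49 and 7.92 and the wild type near background at 0.71 and 3.33. The difference of 2.67 (SE 0.79), or 6.36-fold, did not pass in the fit over all 8 arrays (adjusted p = 0.12). The wild type arrays, far apart near background, enter its estimate of spread. It passed in 4 of the 16 settings: with values under 16 set to 16 (adjusted p = 0.0012), with the Aft and double mutant arrays fitted alone (adjusted p = 0.029), and without wild type array 1 or without wild type array 2 (adjusted p = 0.012 each).

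**Figure D2:**
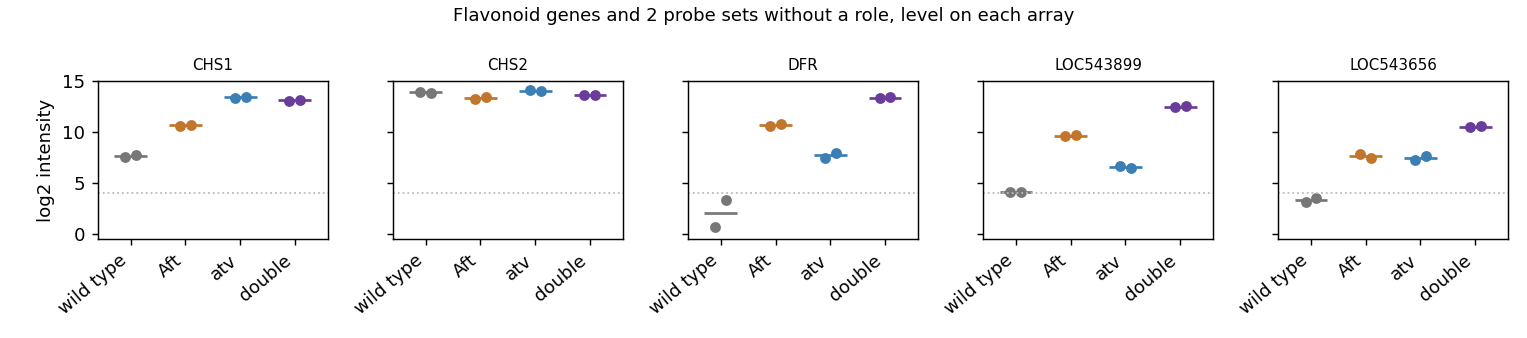
Log2 intensity on each of the 8 arrays (points) and the mean of each genotype (bars) for CHS1, CHS2, DFR and 2 probe sets named only by a gene number; the dotted line marks the minimum of 4. DFR, LOC543899 and LOC543656 are highest in the double mutant, while CHS1 is at 13.35 and 13.41 in atv and at 13.06 and 13.14 in the double mutant.

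Of the MYB regulator list, 3 genes were tested and none was called, which for so few genes is near the 8.36% of probe sets with a symbol. THM6 read 10.84 and 11.05 in Aft and 10.98 and 10.91 in the double mutant, and its difference was 0.00 (adjusted p = 0.99). THM27 differed by -0.53 (adjusted p = 0.35) and MYB by 0.22 (adjusted p = 0.91). ANT1, which encodes a MYB activator of anthocyanin genes in tomato, and THM1 failed the minimum signal, so no level of theirs is given.

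Several probe sets that carry only a gene number were chosen after their values were seen. They were picked because they were higher in the double mutant than in Aft, as DFR and CHS1 were. Likeness to these genes is therefore not a result, and no role is given to the probe sets. LOC543899 read 9.62 and 9.67 in Aft and 12.45 and 12.50 in the double mutant, a rise of 2.83 (SE 0.10, adjusted p = 0.00041). Its order over the genotypes was that of DFR, with 4.14 and 4.06 in the wild type and 6.67 and 6.48 in atv. LOC543656 rose by 2.90 (SE 0.24, adjusted p = 0.0051), from 7.84 and 7.42 in Aft to 10.46 and 10.60 in the double mutant. It read 3.08 and 3.50 in the wild type and 7.24 and 7.67 in atv, so Aft and atv overlapped. LOC544001 rose by 2.02 (SE 0.18, adjusted p = 0.0062), from 7.43 and 7.19 to 9.45 and 9.22, and was higher still in atv, at 11.08 and 10.67. These 3 were called in all 16 settings.

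The lipoxygenase and jasmonate list held the largest share of calls among lists of 10 or more genes. Of its 12 tested genes 2 rose, 5 fell and 5 did not pass (58.3% called, median -0.10), against 4.10% called and a median of 0.02 over all probe sets and 8.36% called among those with a symbol. Lipoxygenases add oxygen to polyunsaturated fatty acids; LOXB and LOX1.1 belong to the fruit forms, while loxC feeds the short-chain volatiles of ripe fruit and loxD the jasmonate route. LOXB fell from 8.69 and 8.44 in Aft to 7.01 and 6.95 in the double mutant, a difference of -1.58 (SE 0.13, adjusted p = 0.0047). LOX1.1 fell from 11.34 and 11.22 to 9.84 and 10.31, a difference of -1.20 (SE 0.19, adjusted p = 0.031). Both were brighter in the wild type, LOXB at 11.00 and 11.09 and LOX1.1 at 12.89 and 12.90, so the double mutant had the lowest level of the 4 genotypes for both. loxD rose from 8.80 and 8.46 to 9.85 and 9.97 (difference 1.28, SE 0.18, adjusted p = 0.023). loxC rose from 6.26 and 5.86 to 7.29 and 7.03 (difference 1.1, SE 0.19, adjusted p = 0.039), below its wild type level of 8.03 and 7.79.

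Genes that act after the lipoxygenases fell by smaller amounts or did not pass. OPR1, a 12-oxophytodienoate reductase gene, fell by 0.82 (SE 0.09, adjusted p = 0.014), from 9.91 and 9.81 to 9.09 and 8.98. OPR3, whose product reduces the jasmonate precursor, fell by 0.56 (adjusted p = 0.043). HPL, the hydroperoxide lyase of the volatile branch, fell by 0.48 (adjusted p = 0.046). AOS and AOC, which encode allene oxide synthase and cyclase of jasmonate synthesis, differed by 0.16 and 0.06 and did not pass. LOXB was called in all 16 settings. The call of OPR1 ended without wild type 1, wild type 2, Aft 1, double mutant 1 or double mutant 2 (adjusted p 0.05 to 0.11), and those of LOX1.1, loxC, loxD, OPR3 and HPL ended without any 1 of the arrays of the wild type, Aft or the double mutant (adjusted p 0.055 to 0.24). On the deposited scale LOXB (adjusted p = 0.021) and LOX1.1 (adjusted p = 0.028) were called and the other 5 were not.

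**Figure D3:**
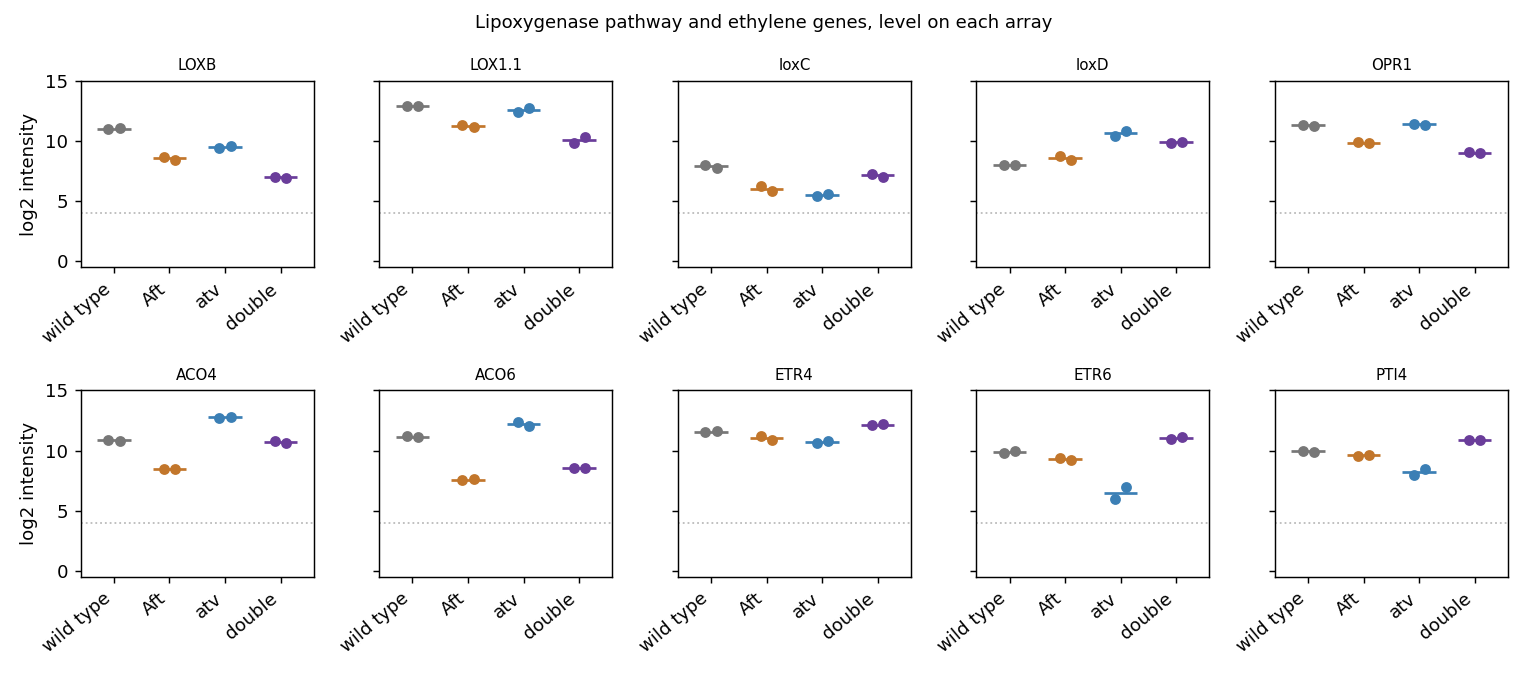
Log2 intensity on each of the 8 arrays (points) with genotype means (bars) for 5 genes of the lipoxygenase pathway (upper row) and 5 ethylene genes (lower row); the dotted line marks the minimum of 4. LOXB and LOX1.1 are lowest in the double mutant, and ETR6 and PTI4 are highest there and lowest in atv.

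Ethylene is made from its precursor by ACC oxidases, is perceived by ETR-type receptors that block the response until they bind it, and acts through ERF-type transcription factors. Of 13 ethylene synthesis genes 2 rose and none fell (15.4% called against 8.36% of probe sets with a symbol, median 0.11). ACO4, an ACC oxidase gene, read 8.45 and 8.43 in Aft and 10.76 and 10.67 in the double mutant, a rise of 2.27 (SE 0.09, adjusted p = 0.00057), or 4.83-fold, called in all 16 settings. The double mutant arrays lay close to the wild type, at 10.89 and 10.84, and below atv, at 12.70 and 12.81. ACO6 rose by 0.96 (SE 0.13, adjusted p = 0.023), from 7.55 and 7.61 to 8.55 and 8.52, and stayed well below its wild type level of 11.20 and 11.09. The other 2 probe sets of ACO6 differed by 1.84 and 0.84 and did not pass. ACO5 differed by 0.78 (adjusted p = 0.054).

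Of 33 ethylene signalling genes 3 rose, 1 fell and 29 did not pass. The share called was 12.1%, against 8.36% of probe sets with a symbol, and the median was 0.03. The receptor gene ETR6 rose from 9.42 and 9.25 in Aft to 10.96 and 11.15 in the double mutant (difference 1.72, SE 0.31, adjusted p = 0.046). The receptor gene ETR4 rose from 11.20 and 10.90 to 12.12 and 12.18 (difference 1.11, SE 0.13, adjusted p = 0.014). PTI4, an ERF-type factor known as a partner of the Pto resistance kinase, rose from 9.55 and 9.64 to 10.91 and 10.90 (difference 1.31, SE 0.18, adjusted p = 0.021). For all 3 the double mutant arrays were the highest of the study and the atv arrays the lowest, at 5.97 and 6.94 for ETR6, 10.67 and 10.83 for ETR4 and 7.95 and 8.48 for PTI4. ER21, named as an ethylene-responsive fruit transcript, fell from 10.44 and 10.59 to 9.62 and 9.32 (difference -1.05, SE 0.18, adjusted p = 0.04), against 13.09 and 12.71 in atv. None of 9 ripening regulators was called, which for so few genes is near the 8.36% of probe sets with a symbol. The MADS-box gene RIN read 5.58 and 4.71 in Aft and 6.13 and 6.59 in the double mutant (difference 1.22, adjusted p = 0.11). AG1 differed by 0.54 (adjusted p = 0.13). NOR was near background, at 3.55 and 4.11 in Aft and 1.31 and 1.81 in the double mutant, so no size is given. The calls of ETR6, PTI4, ER21 and ACO6 ended without any 1 array of the wild type, Aft or the double mutant (adjusted p 0.064 to 0.21), and that of ETR4 without wild type 1, wild type 2, double mutant 1 or double mutant 2 (adjusted p 0.05 to 0.11).

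The largest fall of a named gene was that of ODD, named for a dioxygenase and placed in the redox list. It read 10.13 and 10.23 in Aft and 4.78 and 5.19 in the double mutant, a difference of -5.19 (SE 0.15, adjusted p = 0.00024), or 36.6-fold lower. The wild type arrays, at 9.25 and 9.22, and the atv arrays, at 8.0 and 8.01, lay between them. AOX1a, the alternative oxidase of the mitochondrial respiratory chain, fell from 8.98 and 8.77 to 5.71 and 6.21, a difference of -2.92 (SE 0.19, adjusted p = 0.0024). The double mutant was again the lowest genotype, with atv the highest at 10.07 and 10.26.

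RBOH1, an NADPH oxidase that makes superoxide at the cell surface, rose from 4.92 and 5.07 to 6.76 and 6.69 (difference 1.73, SE 0.11, adjusted p = 0.0023). The metallothionein-like gene MT3 was near background in Aft, at 1.42 and 1.88, and read 5.03 and 5.77 in the double mutant. With values under 16 set to 16 it was at least 2.65-fold higher (adjusted p = 0.035). Of the 21 redox genes 2 rose, 2 fell and 17 did not pass. The share called was 19%, against 8.36% of probe sets with a symbol, and the median was 0.01. The superoxide dismutase, catalase and ascorbate peroxidase genes used for the list were among the 17. However, the dimmer of 2 FESOD probe sets, an iron superoxide dismutase gene, rose by 0.90 (adjusted p = 0.018). ODD and AOX1a were called in all 16 settings and MT3 in all 15 in which it was tested, and RBOH1 missed the threshold only on the deposited scale (adjusted p = 0.057). FESOD was lost without any 1 array of the wild type, Aft or the double mutant (adjusted p 0.05 to 0.12).

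**Figure D4:**
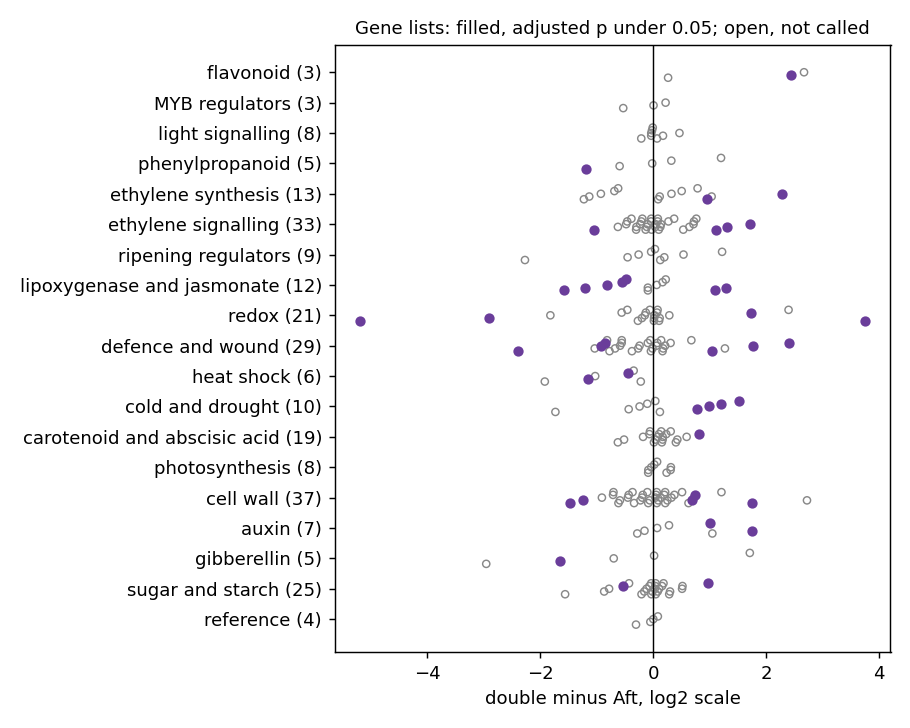
Difference between the double mutant and Aft on the log2 scale for each tested gene of 19 lists, with the number of genes of the list in brackets. Filled points passed the test and open points did not. Calls lie on both sides of 0 in lists such as the lipoxygenase, redox, defence and cell wall genes. They lie only above 0 in the cold and drought, ethylene synthesis, auxin, flavonoid and carotenoid lists. In the heat shock, phenylpropanoid and gibberellin lists they lie only below 0.

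Of 29 defence and wound genes 3 rose and 3 fell (20.7% called against 8.36% of probe sets with a symbol, median -0.05). The stress-induced gene TSI-1, of the PR-10 family, rose from 5.14 and 5.39 in Aft to 7.71 and 7.62 in the double mutant (difference 2.40, SE 0.19, adjusted p = 0.0044). BR1 rose from 4.86 and 5.11 to 6.82 and 6.69 (difference 1.77, SE 0.14, adjusted p = 0.0051), a level like that of the wild type, at 6.74 and 6.84. Dea1 rose by 1.05 (adjusted p = 0.043). The chitinase gene CHI3 fell from 11.67 and 11.59 to 9.14 and 9.34 (difference -2.39, SE 0.13, adjusted p = 0.0013), below the wild type, at 11.18 and 11.14, and was called in all 16 settings. The chitinase gene CHI17 fell by 0.92 (adjusted p = 0.041) and PR-P2, a pathogenesis-related protein gene, fell by 0.85 (adjusted p = 0.018). Outside the lists, cevi19, named for its induction by a viroid, rose from 6.63 and 6.91 to 8.48 and 8.36 (difference 1.65, SE 0.14, adjusted p = 0.0062). TSI-1, BR1 and cevi19 held without any 1 array and missed the threshold only on the deposited scale (adjusted p 0.051 to 0.12), whereas Dea1, CHI17 and PR-P2 were lost without any 1 array of the wild type, Aft or the double mutant (adjusted p 0.058 to 0.2).

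The cold and drought list had calls in 1 direction, as did several other lists with fewer calls. Of its 10 genes 4 rose and none fell (40% called against 8.36% of probe sets with a symbol, median 0.08). TSW12, a lipid transfer protein gene, rose from 8.28 and 8.06 in Aft to 9.69 and 9.69 in the double mutant (difference 1.52, SE 0.15, adjusted p = 0.0086). TAS14, a dehydrin gene, rose from 8.28 and 8.05 to 9.27 and 9.47 (difference 1.21, SE 0.12, adjusted p = 0.011). LE16, another lipid transfer protein gene and also in the cuticle list, rose from 11.97 and 12.19 to 13.15 and 13.00 (difference 0.99, SE 0.11, adjusted p = 0.014). The transcription factor gene DREB3 rose by 0.78 (adjusted p = 0.039). For TSW12, TAS14 and LE16 the atv arrays were the brightest of the study. Without double mutant array 2 the calls of TSW12 (adjusted p = 0.064) and TAS14 (adjusted p = 0.074) ended. LE16 was lost without wild type 1, wild type 2, Aft 1, double mutant 1 or double mutant 2 (adjusted p 0.05 to 0.074), and DREB3 without any 1 array of the wild type, Aft or the double mutant (adjusted p 0.06 to 0.2).

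Of 6 small heat shock protein genes, none rose between Aft and the double mutant. All 6 were called higher in atv than in the wild type, as were 18.8% of all probe sets tested. Between Aft and the double mutant, 2 of the 6 fell and 4 did not pass (33.3% called against 8.36% of probe sets with a symbol, median -0.74). HSP17-6 read 10.97 and 10.99 in Aft and 10.53 and 10.51 in the double mutant (difference -0.45, SE 0.08, adjusted p = 0.047), against 13.62 and 13.57 in atv. vis1 fell from 4.54 and 5.02 to 3.71 and 3.53 (difference -1.16, adjusted p = 0.047), against 10.54 and 10.24 in atv; it lay near background and was not called with values under 16 set to 16 (adjusted p = 0.079). HSP21 differed by -1.03 (adjusted p = 0.086). Both calls ended without any 1 array of the wild type, Aft or the double mutant (adjusted p 0.079 to 0.26).

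Of 37 cell wall genes 3 rose, 2 fell and 32 did not pass. The share called was 13.5%, against 8.36% of probe sets with a symbol, and the median was 0.05. TBG1, a beta-galactosidase gene, fell from 11.79 and 11.67 in Aft to 10.25 and 10.27 in the double mutant (difference -1.47, SE 0.10, adjusted p = 0.003) and was called in all 16 settings. The expansin gene EXPA6 fell from 7.84 and 7.81 to 6.53 and 6.64 (difference -1.24, SE 0.11, adjusted p = 0.0073) by its brighter probe set, while the other, near background, did not pass. EXP2, named as an expansin and outside the list, fell from 8.83 and 8.71 to 7.66 and 7.68 (difference -1.10, SE 0.09, adjusted p = 0.0061). The expansin gene EXPA4 rose by 0.75 (adjusted p = 0.023) and the xyloglucan-modifying gene XTH6 by 0.69 (adjusted p = 0.033), so expansin genes moved both ways. ARPI, in the cell wall and auxin lists by its symbol, rose from 10.39 and 10.86 to 12.37 and 12.38 (difference 1.75, SE 0.20, adjusted p = 0.014), the highest level of the 4 genotypes. EXPA6 was lost without Aft 1 or double mutant 2 (adjusted p 0.053 to 0.054), EXP2 without double mutant 2 (adjusted p = 0.056), ARPI without Aft 1, double mutant 1 or double mutant 2 (adjusted p 0.061 to 0.094), and EXPA4 and XTH6 without any 1 array of the wild type, Aft or the double mutant (adjusted p 0.062 to 0.19).

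Among growth hormone genes, 2 of 7 auxin genes rose and none fell. The share called was 28.6%, against 8.36% of probe sets with a symbol, and the median was 0.28. The 2 were ARPI and IAA7, an Aux/IAA repressor gene. IAA7 went from 9.27 and 9.0 to 10.16 and 10.14 (difference 1.01, SE 0.16, adjusted p = 0.032). The other IAA7 probe set differed by 0.84 (adjusted p = 0.1). IAA2, near background in Aft, did not pass (adjusted p = 0.079). Of 5 gibberellin genes 1 fell (20% called against 8.36% of probe sets with a symbol, median -0.70). This was 20ox-3, an oxidase of gibberellin synthesis. It went from 6.28 and 6.01 to 4.46 and 4.52 (difference -1.65, SE 0.13, adjusted p = 0.0041), and the atv arrays, at 4.25 and 4.17, were as low. GA20OX1 read 6.09 and 6.15 in Aft and was near background in the double mutant, at 2.94 and 3.38, without passing in the fit over all 8 arrays (adjusted p = 0.11). It passed in 4 of the 16 settings: with values under 16 set to 16, where it was at least 4.34-fold lower (adjusted p = 0.0013), with the Aft and double mutant arrays fitted alone (adjusted p = 0.039), and without wild type array 1 or without wild type array 2 (adjusted p = 0.011 each). RSI-1 differed by -0.70 (adjusted p = 0.13). The call of IAA7 ended without any 1 array of the wild type, Aft or the double mutant (adjusted p 0.073 to 0.16); 20ox-3 missed the threshold only on the deposited scale (adjusted p = 0.053).

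Of 19 carotenoid and abscisic acid genes 1 rose. The share called was 5.26%, below the 8.36% of probe sets with a symbol and near the 4.10% over all, and the median was 0.14. ZEP, the zeaxanthin epoxidase, went from 11.46 and 11.47 to 12.19 and 12.37 (difference 0.82, SE 0.12, adjusted p = 0.027). CRTL-E-1 differed by 0.59 (adjusted p = 0.087). Psy1, a phytoene synthase gene, has 3 probe sets that disagreed, at 0.40 (adjusted p = 0.1) for the brightest, -0.67 (adjusted p = 0.028) and 0.00, so no direction is given. ZEP and the dimmer Psy1 probe set were lost without any 1 array of the wild type, Aft or the double mutant (adjusted p 0.052 to 0.19). None of 8 photosynthesis genes was called, with POR2 at 0.31, CAB6A at 0.24 and CAB5 at 0.31. Since 8.36% of probe sets with a symbol were called, a list this small without a call lies near that share. The same holds for the light signalling list. None of 8 light signalling genes was called: HY5, a light-response factor that acts on flavonoid genes in Arabidopsis, read 10.46 and 10.52 in Aft and 10.85 and 11.05 in the double mutant (difference 0.46, adjusted p = 0.082), Cry1b differed by -0.21 and COP1 by 0.17.

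Of 25 sugar and starch genes 1 rose and 1 fell (8% called, near the 8.36% of probe sets with a symbol, median 0.03). The acid invertase gene AI, whose product splits sucrose, rose from 12.48 and 12.56 in Aft to 13.48 and 13.51 in the double mutant (difference 0.98, SE 0.11, adjusted p = 0.014), the wild type level. AGP-S2, a subunit of the ADP-glucose pyrophosphorylase of starch synthesis, fell by 0.53 (SE 0.10, adjusted p = 0.048), and HT2 differed by -0.78 (adjusted p = 0.065). Of 5 phenylpropanoid genes 1 fell (20% called against 8.36% of probe sets with a symbol). This was THT7-1, a hydroxycinnamoyl transferase of amide synthesis. It went from 9.59 and 9.58 to 8.48 and 8.32 (difference -1.18, SE 0.21, adjusted p = 0.046). CCR1 differed by 0.32, and THT1-3 was near background. Neither passed. The ovule gene AGL11, the tested symbol of the seed list, differed by -0.45. AI was lost without Aft 1, double mutant 1 or double mutant 2 (adjusted p 0.062 to 0.096). AGP-S2 and THT7-1 were lost without any 1 array of the wild type, Aft or the double mutant (adjusted p 0.065 to 0.26).

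Other large rises among named genes lay near background. The ribonuclease gene RNALE read 3.12 and 3.43 in Aft and 5.58 and 5.76 in the double mutant, at least 3.19-fold higher with values under 16 set to 16 (adjusted p = 0.018), a call that ended without Aft 1, double mutant 1 or double mutant 2 (adjusted p 0.056 to 0.094). psi14B was at 0 on both Aft arrays and at 3.27 and 3.33 in the double mutant by 1 probe set, where no fold is given since both genotypes lie under 16. Its call ended with values under 16 set to 16 (adjusted p = 1) and with a trended robust fit (adjusted p = 0.1), and its other probe sets did not pass. TKR read 0.89 and 0.92 in Aft and 4.09 and 3.46 in the double mutant; its call ended with the floor (adjusted p = 0.9) and without any 1 array of Aft, atv or the double mutant (adjusted p 0.052 to 0.19).

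The largest changes among probe sets without a symbol were as large as those of the named genes. Les.2946.2.S1_at rose from 4.08 and 4.41 in Aft to 8.33 and 8.31 in the double mutant (difference 4.08, SE 0.13, adjusted p = 0.00029), or 16.9-fold, with 8.30 and 8.38 in atv and 2.86 and 2.94 in the wild type. Les.4876.1.S1_at fell from 11.23 and 11.11 to 6.26 and 6.43 (difference -4.83, SE 0.10, adjusted p = 0.00011), or 28.4-fold, against 13.30 and 13.33 in atv. Both were called in all 16 settings. LesAffx.63523.2.S1_at fell from 5.54 and 5.44 to 0.00 and 0.12, at least 2.81-fold with values under 16 set to 16 (adjusted p = 0.048). LesAffx.52169.1.S1_at, near background in Aft at 0.74 and 1.56, read 4.50 and 5.67 in the double mutant and was not called with that floor (adjusted p = 0.23) or without any 1 array of the wild type, Aft or the double mutant (adjusted p 0.054 to 0.15).

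The change that goes with atv differed between the Aft and the wild type backgrounds. The comparison of atv with the wild type shares no array with that of the double mutant and Aft, though both use 1 normalization and 1 estimate of spread. It called 3829 probe sets (40.3%), or 2115 without wild type array 1 and 2226 without wild type array 2, and the median size of the difference over all probe sets was 0.460 there and 0.260 between the double mutant and Aft. Of the 389 probe sets called in the Aft background 185 were also called in the same direction in the wild type background, 123 higher and 62 lower, which is 47.6% of the first list and 4.83% of the second. A further 83 were called in the opposite direction (21.3% and 2.17%), 40 of them higher in the double mutant and lower in atv, and 121 were not called in atv against wild type. Over all 9493 probe sets, 18.8% were called higher and 21.5% lower in atv than in the wild type. The 21.3% in the opposite direction is near these shares, so it is not a trait of the 389. Over the 9493 probe sets the differences correlated at r = 0.18, a description across probe sets that share the arrays of each genotype.

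The difference between the backgrounds was itself tested as an interaction, double mutant minus Aft, less atv minus wild type. It was called for 2293 of all probe sets (24.2%) and for 237 of the 389 (60.9%). The 237 included 69 of the 185 called in the same direction. The 389 were selected with double mutant and Aft arrays that also enter the interaction, so the higher share among them is not independent support. Of the reference genes, CYP1 (-1.40, limma adjusted p = 0.01) and TUB (0.49, adjusted p = 0.033) were called. CHS1 rose in both backgrounds but less in Aft, where its starting level was higher (interaction -3.26, SE 0.15, adjusted p = 0.00023). ACO4 rose and LOXB fell in both, and their interactions, 0.38 (SE 0.13, adjusted p = 0.093) and -0.03 (SE 0.18, adjusted p = 0.94), did not pass. ETR6, PTI4, ETR4 and TSI-1 rose in the Aft background and fell in the wild type background, where ETR6 fell by 3.44 and PTI4 fell by 1.71. AOX1a, ER21, vis1 and EXP2 did the reverse. For DFR, near background in the wild type, the interaction did not pass in the fit as made (adjusted p = 0.11); with values under 16 set to 16 the rise was 3.70 between wild type and atv and 2.67 between Aft and the double mutant (interaction -1.04, SE 0.23, adjusted p = 0.02). The interaction count ran from 1157 without wild type array 1 to 2579, with 1182 without wild type array 2, 1298 without double mutant array 2 and 1455 without double mutant array 1.

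**Figure D5:**
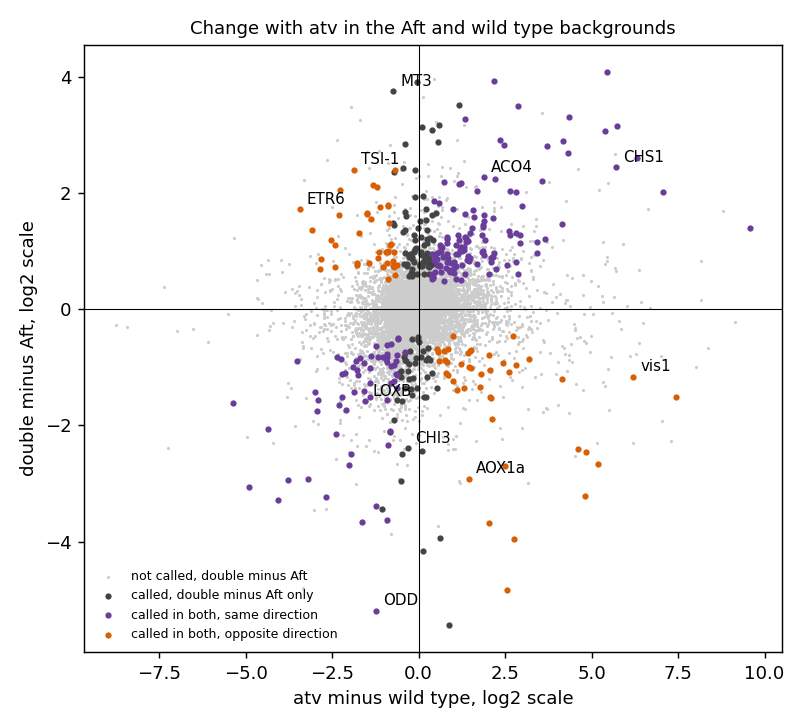
Each point is 1 of 9493 probe sets, with the difference between atv and wild type on the x axis and between the double mutant and Aft on the y axis, both on the log2 scale. Coloured points are the 389 called between the double mutant and Aft: 185 called in both comparisons in the same direction, 83 in opposite directions and 121 called in the Aft background and not in the other.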

How the data were processed

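Peel RNA from 8 samples was hybridised to Affymetrix Tomato Genome Arrays. The deposited values are intensities, 1 per probe set and array, on a linear scale; the submitters' processing notes name GCRMA, and other steps were not given in the sources used here. Because array medians differed, quantile normalization over the 8 arrays came first, then a floor of 1, then log2 of the deposited intensities. Of 10209 probe sets 171 controls were left out, 545 failed a minimum of log2 4 in at least 2 arrays, and 9493 were tested. Symbols came from the platform annotation (909 probe sets, 885 found in a current gene table by identifier). A probe set was treated as near background where a genotype's mean was under 4, and its fold is then a bound from values floored at 16.

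A mean for each genotype was estimated by limma 3.58.1 (R 4.3.3) from the 8 arrays together (4 residual and 1.77 prior degrees of freedom). Tests were two-sided, with Benjamini-Hochberg adjustment over the 9493 and a threshold of 0.05. The number of arrays limits the precision. The p-values rest on the spread between the 2 biological replicates of each genotype, pooled over all genotypes and drawn towards a value shared across probe sets. Arrays outside a comparison therefore enter its p-values. The labels do not detail the separate origin of the replicates further. The fit was tested on simulated data. Named genes are the tested flavonoid and MYB genes, the 12 largest called rises and falls with an informative symbol, the 3 lowest p of every other of 23 lists, and 2 unnamed probe sets in each direction; others called in a list, and the genes known by number, were chosen after their values were seen. For lists the brightest probe set of a gene was used, and 17 list probe sets failed the minimum. The members and lists were chosen with earlier results of these data known. Alternatives were the deposited scale, the floor, the filter, the arrays fitted, a trended robust fit, a replicate block and leaving out each array.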

Additional observations from a re-analysis of the deposited data

Results flagged for a closer look

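The interaction, the change of the double mutant against Aft less that of atv against wild type, passed the test (limma, adjusted p from 1.8e-05 to 0.049) for 29 of the named probe sets called between the double mutant and Aft. These were selected with the double mutant and Aft arrays, which also enter the interaction, so their number is not independent support. All values are on the log2 scale.

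Among genes that were higher in the double mutant, the interaction was positive for ETR6 at 5.16, MT3 at 4.50, TSI-1 at 4.27, cevi19 at 3.15, PTI4 at 3.02, ARPI at 2.86, RNALE at 2.50, AI at 2.12, ETR4 at 1.94 and RBOH1 at 0.74. ETR6, TSI-1, cevi19, PTI4, ARPI, AI and ETR4 fell between wild type and atv, RBOH1 rose in both backgrounds, and MT3 and RNALE were not called between atv and wild type. It was negative for CHS1 at -3.26, loxD at -1.36, BR1 at -1.21 and LE16 at -0.88, which rose by more in the wild type background, and for Les.2946.2.S1_at at -1.36 and psi14B at -1.05.

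Among genes that were lower in the double mutant, the interaction was negative for Les.4876.1.S1_at at -7.39, vis1 at -7.37, LesAffx.63523.2.S1_at at -6.31, AOX1a at -4.36, ODD at -3.96, HSP17-6 at -3.17, ER21 at -3.11, CHI3 at -2.09, EXP2 at -1.88, TBG1 at -1.27, OPR1 at -0.90 and AGP-S2 at -0.52. Les.4876.1.S1_at, vis1, AOX1a, HSP17-6, ER21 and EXP2 rose between wild type and atv, ODD fell in both backgrounds, and the other 5 were not called between atv and wild type. It was positive for 20ox-3 at 0.65, which fell by more in the wild type background.

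MT3 (Aft and atv), RNALE (Aft), vis1 and LesAffx.63523.2.S1_at (double mutant), psi14B (wild type, Aft and double mutant) and Les.2946.2.S1_at (wild type) lay near background in the genotypes in brackets, so the sizes above are not exact for them. With values under 16 set to 16 the interaction was 2.13 for MT3 (adjusted p = 0.0085), 1.79 for RNALE (adjusted p = 0.013), -6.99 for vis1 (adjusted p = 5.3e-05) and -2.37 for LesAffx.63523.2.S1_at (adjusted p = 0.011). It was no longer called for psi14B, at -0.46 (adjusted p = 0.13), or for Les.2946.2.S1_at, at -0.26 (adjusted p = 0.35).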

How the results depend on the processing

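Among the 71 probe sets named by the stated rules, no called difference changed sign in any setting, while 3 uncalled ones did (THM6, FDH and MTS1). The count of probe sets called between the double mutant and Aft, 389, moved to 76 as deposited (52.6% higher, against 61.4%), 134 with the Aft and double mutant arrays fitted alone, 584 with values under 16 set to 16, 732 with a trended robust fit and 821 with the atv group left out, and ran from 73 to 821 without 1 array, with 37.3% higher without double mutant array 1. The count between atv and wild type, 3829, was 1987 as deposited and 2115 to 3835 without 1 array, and the interaction count, 2293, was 872 as deposited (31.1% higher, against 51.7%) and 1157 to 2579 without 1 array. Leaving out an array of a genotype outside the comparison removes its spread from the fit, which for 2 arrays a genotype equals leaving out the genotype. The carotenoid list had 2 calls in place of 1 with every probe set. Of 41 named calls 27 were lost as deposited, 4 with the floor, 16 with Aft and the double mutant fitted alone, 24 without double mutant array 2, 20 without Aft array 1 and 5 with the replicate block; 9 were called in every setting and 17 without any 1 array. Replicate numbers did not pair the arrays (deviations correlated at -0.035 between Aft and the double mutant and at up to 0.181 between other genotypes, not over 0.1 in every pair), so the block is given only here: with the replicate block 356, 3765 and 2170 probe sets were called in the 3 comparisons. Near background, below log2 4, folds are bounds. Of the 389 calls, 33 had both Aft arrays or both double mutant arrays below 4. Calls near background only in the wild type or atv are not in that count.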

Other observations

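Genes known to respond to phosphate supply were looked at together after the rise of RNALE, the phosphate starvation ribonuclease, had been seen, so no test is given for the group. PPCK2, a kinase of phosphoenolpyruvate carboxylase, rose from 6.62 and 6.59 in Aft to 7.74 and 7.85 in the double mutant (difference 1.19, limma adjusted p = 0.049). TPSI1, a transcript induced by phosphate starvation, read 9.78 and 9.78 in Aft and 10.62 and 10.32 in the double mutant without passing (difference 0.69, adjusted p = 0.082). The phosphate transporter gene PT2, near background in Aft, read 1.59 and 1.47 there and 3.97 and 5.55 in the double mutant (adjusted p = 0.2). The transporter gene PT1 differed by -0.39 (adjusted p = 0.094), the phosphatase gene APS1 by -0.14, the kinase gene PPCK1 by -0.30 and the ribonuclease gene rnalx by 0.84, none of which passed. Over the settings APS1 ranged from -0.29 to 0.01 and PPCK1 from -0.72 to 0.12. psi14A was near background, at 0 and 1.26 in Aft and 0 and 2.43 in the double mutant, and did not pass (adjusted p = 0.67). psi14B is described above. The call of PPCK2 ended without any 1 array of the wild type, Aft or the double mutant (adjusted p 0.095 to 0.23).

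Some further called genes with a symbol, also chosen after their values were seen, are given here without a shared function. Others were called and are not described in full, among them Prg1 and yfe37, which rose, and TGAS118, which fell. For gtsatom only the dimmer probe set was called higher, near background in Aft, and the other did not pass. For CIP2a only the dimmest probe set was called lower. It lay near background in the double mutant, and its call ended with values under 16 set to 16 (limma adjusted p = 0.061). The brighter CIP2a probe sets differed by -0.32 and 0.29 and did not pass, so no direction is given. The amino acid permease gene AAP2 rose from 6.55 and 6.74 in Aft to 7.89 and 7.96 (difference 1.28, adjusted p = 0.014), and the isocitrate lyase gene ICL rose from 10.03 and 9.92 to 11.32 and 11.36 (difference 1.36, adjusted p = 0.04). ICL was low in atv, at 7.05 and 7.78, where AAP2 was high, at 10.19 and 10.38. The dehydroascorbate reductase gene DHAR1 rose by 0.65 (adjusted p = 0.039) by 1 of its 2 probe sets. The arginine decarboxylase gene adc1 fell by 0.68 (adjusted p = 0.019) by 1 of its 4 probe sets, and the other probe sets did not pass. AAP2 was lost without Aft 1, double mutant 1 or double mutant 2 (adjusted p 0.061 to 0.096), adc1 without wild type 1, wild type 2, Aft 1, double mutant 1 or double mutant 2 (adjusted p 0.066 to 0.14), and ICL and DHAR1 without any 1 array of the wild type, Aft or the double mutant (adjusted p 0.092 to 0.21).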
